A study of Mus musculus with 12 samples.

Results

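The comparison of culture time set the 4 arrays of podocyte cultures taken on day 7 against the 4 arrays taken on day 4, which together are 8 of the 12 arrays of the series. Each day had 2 mock and 2 tamoxifen cultures, numbered 1 and 2 in the labels. The cultures were primary podocytes that had grown out of isolated glomeruli of adult mice, their age given only as adult. Tamoxifen cultures received its active form; the day counts from treatment, and the labels describe it both as the length of treatment and as the time since it. All of them, mock cultures included, carried an inducible Cre (CreERT2) and floxed Foxc1 alleles (Foxc1 flox/flox), with a second floxed Foxc gene whose number in the genotype label changes from culture to culture; the series title names Foxc1 and Foxc2. The labels do not give the promoter that drives Cre, nor whether cultures 1 and 2 came from separate mice, so the p-values measure the spread between these numbered samples, which may be technical. Total RNA was labelled with Cy3 and read on one-colour Agilent arrays, 1 array per culture. A level is the log2 signal of a gene's probe relative to the 75th percentile of its array, and a day difference is the day 7 level minus the day 4 level of the same treatment and number. The labels do not say whether a number marks the same culture on day 4 and day 7. A pair here therefore means only arrays of the same treatment and number, not a culture followed over time.

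Podocytes are the epithelial cells that wrap the capillaries of the kidney glomerulus, where their foot processes and the slit diaphragm between them hold back plasma protein. Outside the glomerulus they lose much of this form, spread and re-enter the cell cycle, and outgrowths from glomeruli can carry other cells, such as macrophages, mesangial cells, endothelium and parietal epithelium. Time in culture changes both the state of the cells and the makeup of the dish. In bulk RNA, fewer cells of a type and less RNA per cell cannot be told apart.

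On the day 4 arrays the 75th percentile used for scaling lay between 506.8 and 620.6 signal units, and on the day 7 arrays between 559.6 and 657.3. No spot was saturated. All day 4 arrays lay on 1 slide and all day 7 arrays on another, so day and slide cannot be told apart. Local background was 28 to 34 on the day 4 slide and 24.5 to 28 on the day 7 slide, and the share of spots that cleared background was 57.9% to 59.5% on the first and 59.9% to 62% on the second. Of 10 spike-in control probes, 8 were well above background on all 8 arrays. Their day differences ran from -0.101 to 0.175 with a median of -0.015, and limma called none of them, with 1 higher on day 7 in all 4 pairs. Foxc1 levels were 3.09 and 4.21 in mock and -5.78 and -1.74 in tamoxifen cultures at day 4. At day 7 Foxc1 stood at 2.62 and 4.32 in mock and -8.21 and -3.26 in tamoxifen cultures. Foxc2 levels were 1.76 and 1.45 in mock and -7.11 and -5.42 in tamoxifen cultures at day 4. At day 7 Foxc2 stood at 1.37 and 1.41 in mock and -7.81 and -7.37 in tamoxifen cultures. Both genes were low in every library labelled tamoxifen. All 10 defining podocyte markers, among them Wt1, Nphs1 and Synpo, were well above background on all 8 arrays. Each array correlated best with the array of its own treatment and number on the other day (r 0.991 to 0.993 across genes, against 0.983 to 0.989 between numbers 1 and 2 of a group); the members of such a pair also held the same position on their slides.

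Across 14221 named genes, limma with a block for each of the 4 pairs called 399 genes, or 2.81%, at an adjusted p under 0.05, and 3425 at an unadjusted p under 0.05. The fit took the 4 pairs as independent. In limma the day difference itself differed between number 1 and number 2 pairs for 3030 genes at an unadjusted p under 0.05. The p-values may therefore rest on fewer than 4 independent pairs and be too small. Of the called genes 330 (2.32% of those tested) were higher at day 7 and 69 (0.485%) were lower. Only 47 of them differed by 2-fold or more, 37 higher and 10 lower, and the median absolute day difference of all genes was 0.11 on the log2 scale. The calls sat low on the intensity scale: 258 of the 330 higher genes had a mean level under -2, and 6.02% of the genes at or under -4 were called higher against 0.428% of those above 2. The median day difference of the genes at or under -4 was 0.12, and that of the genes above 2 was 0.02. On day 4 and day 7 the 4 arrays did not overlap for 285 of the 330 higher genes and 24 of the 69 lower genes, beside 6.69% and 1.89% of all genes. The called genes were picked on the same day differences, so their share without overlap is not separate support for the calls.

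No gene remained called when any 1 of the 4 pairs was left out (2173 to 3120 genes at an unadjusted p under 0.05), when the background was corrected with normexp instead of by the scanner software (972), or when dim probes were not filtered (3696).

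**Figure D1:**
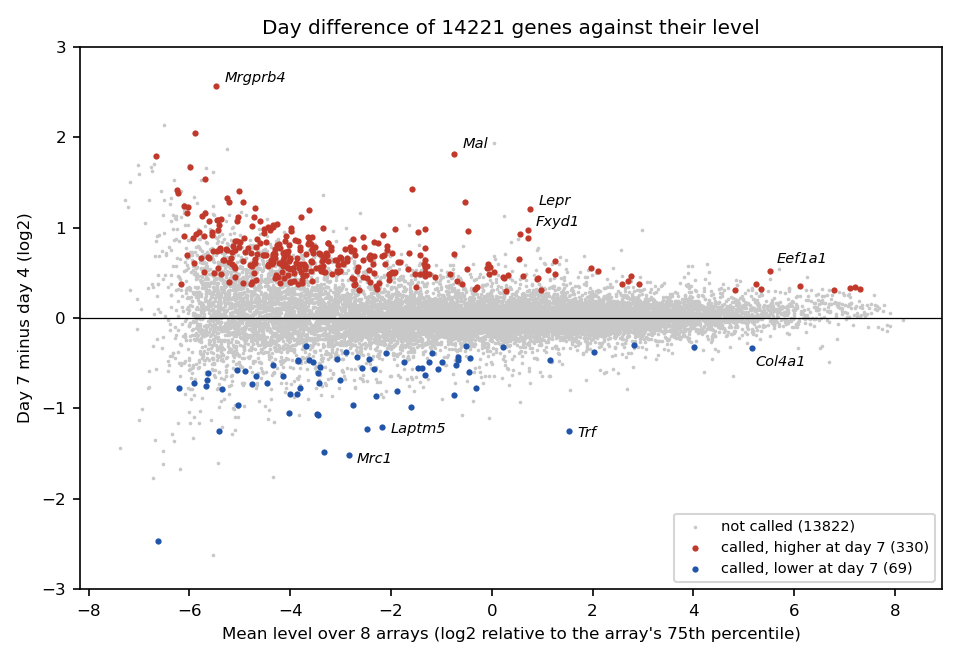
Day 7 minus day 4 (log2, y axis) against the mean level over the 8 culture arrays (log2 relative to the 75th percentile of the array, x axis) for 14221 genes. Red points are the 330 genes called higher and blue points the 69 called lower at day 7; most red points lie at levels under -2, and Mal, Lepr, Fxyd1 and Trf stand apart among brighter genes.

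Among called genes with a mean level above -1, Mal had the largest rise. Mal encodes a proteolipid of apical membrane traffic, and its levels were -1.61 and -2.39 in mock and -0.97 and -1.65 in tamoxifen cultures at day 4. At day 7 Mal stood at -0.07 and -0.36 in mock and 0.63 and 0.43 in tamoxifen cultures. All day 7 arrays lay above all day 4 arrays, a 3.51-fold rise (log2 difference 1.81, SE 0.12, 4 pairs; adjusted p = 0.0227 in limma). The leptin receptor gene Lepr had levels of 0.11 and -0.003 in mock and 0.21 and 0.32 in tamoxifen cultures at day 4. At day 7 Lepr stood at 1.45 and 0.99 in mock and 1.63 and 1.41 in tamoxifen cultures. It rose 2.31-fold (SE 0.09 on the log2 scale, adjusted p = 0.0227), again without overlap between the days. Fxyd1, which encodes the sodium pump regulator phospholemman, had levels of 0.30 and -0.04 in mock and 0.37 and 0.27 in tamoxifen cultures at day 4. At day 7 Fxyd1 stood at 1.35 and 0.87 in mock and 1.44 and 1.16 in tamoxifen cultures. Its rise of 1.97-fold was the same in mock and tamoxifen pairs to within 0.004 on the log2 scale (adjusted p = 0.0227). Xntrpc rose 2.44-fold, the leukocyte transcript Lst1 1.85-fold and Igfbp7, an insulin-like growth factor binding protein, 1.93-fold. Igfbp7 levels ran from -2.24 to -1.64 at day 4 and from -1.28 to -0.43 at day 7.

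Of the called genes above a level of 0 and named by more than a clone number, 28 rose and 7 fell. With clone numbers counted, 0.542% of all genes at levels from 0 to 2 and 0.428% of those above 2 were called higher. Called lower were 0.0903% and 0.122%. The rises included the cyclin D1 gene Ccnd1, at 1.13 and 1.13 in mock and 0.76 and 0.74 in tamoxifen cultures at day 4. At day 7 Ccnd1 stood at 1.83 and 1.54 in mock and 1.57 and 1.33 in tamoxifen cultures, a difference of 0.63 (adjusted p = 0.0371). They also held the elongation factor genes Eef1a1 (0.52) and Eef1b2 (0.32) and the ribosomal protein genes Rpl13a (0.38), Rpl37 (0.34), Rpl35 (0.33), Rplp0 (0.32) and Rpl24 (0.31). Counted by symbol after these had been seen, 5 of 76 ribosomal protein genes were called higher, beside 2.32% of all genes. Eef1a1 levels ran from 5.15 to 5.40 at day 4 and from 5.59 to 6.04 at day 7, without overlap. These small rises depended on the scale. With each array centred on its median, or with quantile normalization, Eef1a1 stayed called and Eef1b2, Rpl13a, Rpl37, Rpl35, Rplp0 and Rpl24 did not, at differences of 0.16 to 0.33. Rpl13a and Rplp0 were the only called members of a list of 15 reference genes. Gapdh differed by 0.16 (adjusted p = 0.2), and Actb and Hprt by -0.02 and -0.02. Other brighter rises were the Wnt deacylase Notum (0.47), the DNA replication factor Gins3 (0.55) and the protease inhibitor Spint2 (0.93), of which another probe of the array pointed the other way.

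**Figure D2:**
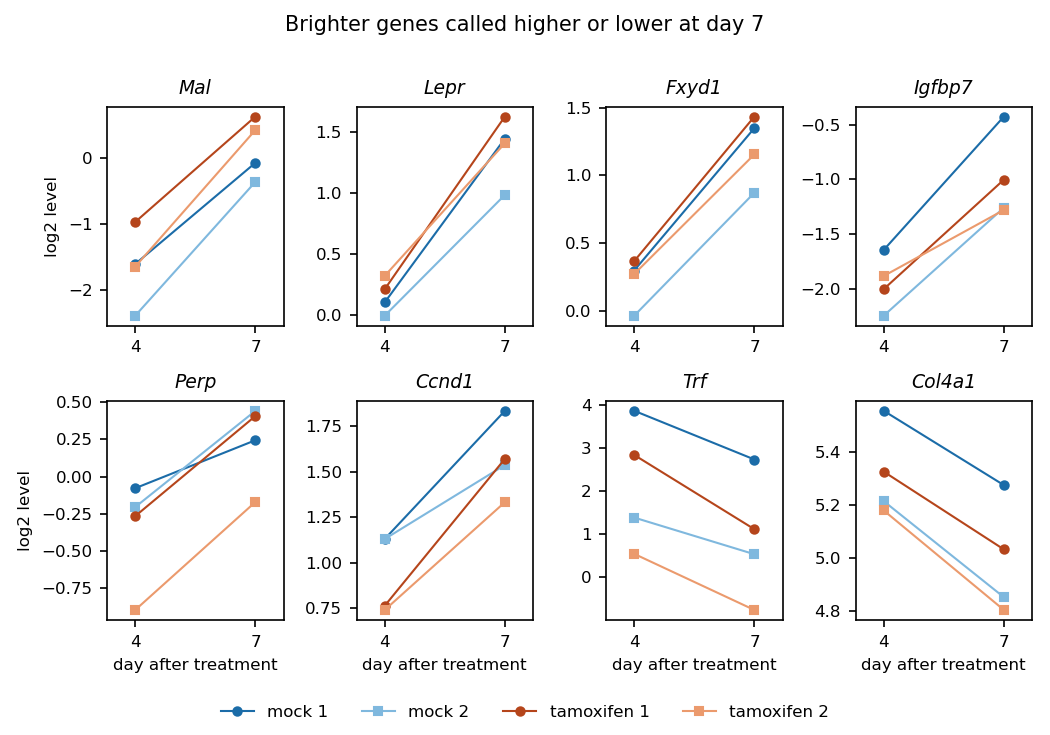
Levels (log2 relative to the 75th percentile of the array, y axis, scaled per gene) of 8 called genes on day 4 and day 7 (x axis); each line joins the arrays of 1 pair, blue for mock and orange for tamoxifen, circles for number 1 and squares for number 2. All 4 lines climb for Mal, Lepr, Fxyd1, Igfbp7, Perp and Ccnd1 and descend for Trf and Col4a1.

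The remaining large rises lay low on the intensity scale. Of the 15 largest rises by rule, 12 had a mean level under -2: Serpinb6e (1.22), the cilium gene Hydin (1.20), Nwd1 (1.12), Pip (1.11), Marchf10 (1.07), Ajap1 (1.07), the adrenergic receptor gene Adra2b (1.04), Ripply2 (1.03), Scml4 (1.02), Zim3 (1.01), Golt1a (1.000) and Fgf14 (0.999), with adjusted p from 0.0227 to 0.0389. Adra2b shows the pattern, with levels of -4.43 and -4.97 in mock and -4.76 and -4.95 in tamoxifen cultures at day 4. At day 7 Adra2b stood at -3.48 and -4.003 in mock and -3.59 and -3.88 in tamoxifen cultures. Its 4 pair differences were 0.96 (mock 1), 0.96 (mock 2), 1.17 (tamoxifen 1) and 1.06 (tamoxifen 2), and the days did not overlap. Another 45 of the 330 higher genes were not well above background on any day 4 array, so they passed the filter through day 7 arrays alone. For these only a bound is given, the day 7 mean against the higher of the probe and the lowest signal well above background. It applies only with the background set by the scanner software. By that bound Mrgprb4 was at least 2.67-fold higher at day 7, Nkain2 at least 2.29-fold, Ccr8 at least 2.28-fold, Vmn2r4 at least 2.01-fold and Krtap1-4 at least 2.00-fold. With the normexp background, 11 of those 12 dim rises and all 5 bounded genes turned to the opposite sign, from -0.03 for Fgf14 to -0.46 for Vmn2r4, and Hydin stood at 0.04. The lower local background of the day 7 slide moves with these rises, and its part in them was not tested.

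The 15 largest falls by rule included Mrc1, Fcna, Laptm5, Ms4a7 and Stab1, which are known from macrophages or other blood cells; the leukocyte transcript Lst1 rose. Mrc1, the mannose receptor of tissue macrophages, had levels of -0.61 and -3.08 in mock and -1.12 and -3.50 in tamoxifen cultures at day 4. At day 7 Mrc1 stood at -1.54 and -4.29 in mock and -3.36 and -5.19 in tamoxifen cultures. Each pair was lower on day 7, with differences of -0.93 (mock 1), -1.21 (mock 2), -2.23 (tamoxifen 1) and -1.69 (tamoxifen 2), while the days overlapped and number 1 cultures stood above number 2 cultures of the same day and treatment. Mrc1 fell by 1.51 (SE 0.23, 2.86-fold; adjusted p = 0.0489). Fcna, which encodes ficolin A, had levels of -0.62 and -3.05 in mock and -1.89 and -4.75 in tamoxifen cultures at day 4. At day 7 Fcna stood at -1.96 and -4.31 in mock and -4.16 and -5.81 in tamoxifen cultures. It fell by 1.48 (SE 0.21, adjusted p = 0.0461). Laptm5, a lysosomal membrane protein gene of blood cells, had levels of -0.37 and -2.08 in mock and -1.08 and -2.75 in tamoxifen cultures at day 4. At day 7 Laptm5 stood at -1.45 and -2.87 in mock and -2.69 and -4.09 in tamoxifen cultures. It fell by 1.20 (SE 0.14, adjusted p = 0.0338). Ms4a7, a tetraspanning membrane protein gene of macrophages, fell by 1.06 (adjusted p = 0.0227), and the scavenger receptor gene Stab1 by 0.85 (adjusted p = 0.0368). The transferrin gene Trf followed the same order of arrays, with levels of 3.86 and 1.39 in mock and 2.84 and 0.54 in tamoxifen cultures at day 4. At day 7 Trf stood at 2.73 and 0.54 in mock and 1.11 and -0.76 in tamoxifen cultures. Trf fell by 1.25 (SE 0.15, adjusted p = 0.0338).

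Of 17 immune cell markers tested, 1 was called, Laptm5, where 2.81% of all genes were called and 0.485% were called lower. The median day difference of the list was -0.60 against 0.01 over all genes, and 10 of 17 were lower on day 7 in all 4 pairs, where 13.9% of all genes were. The complement C1q genes were lower in each pair but missed the threshold. C1qa levels were 1.64 and 0.04 in mock and 0.93 and -0.45 in tamoxifen cultures at day 4. At day 7 C1qa stood at 1.30 and -0.33 in mock and 0.06 and -1.54 in tamoxifen cultures. The C1qa difference was -0.67 (95% interval -1.06 to -0.28, adjusted p = 0.0918), and C1qb and C1qc differed by -0.63 and -0.64 (adjusted p = 0.083 and 0.0871). The receptor adaptor genes Tyrobp and Fcer1g differed by -0.64 and -0.60 (adjusted p = 0.111 and 0.0713), and Fcer1g passed with arrays centred on their medians. Other markers of the list showed smaller differences with intervals across 0: the macrophage growth factor receptor gene Csf1r -0.09 (-0.25 to 0.08), the pan-leukocyte gene Ptprc -0.17 (-0.54 to 0.21) and Itgam -0.06 (-0.44 to 0.33). Cd3e was higher in all 4 pairs, at 0.53 (adjusted p = 0.0868).

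The summed signal of the tested immune markers, relative to the 75th percentile of the array, was 17.63 to 34.72 in mock and 15.96 to 24.59 in tamoxifen cultures at day 4, against 15.53 to 31.12 and 11.02 to 19.36 at day 7. Of the 20 listed markers, 15 were well above background on all 8 arrays and 2, H2-Aa and Ms4a1, on none. The list median stayed between -0.70 and -0.48 under 9 other settings, and no macrophage gene above changed sign with the normexp background, where Mrc1 stood at -1.05, Laptm5 at -0.998 and Trf at -1.02. The part of the immune cell signal in the falls of Trf, Hal, Cbr2 and other genes was not tested.

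**Figure D3:**
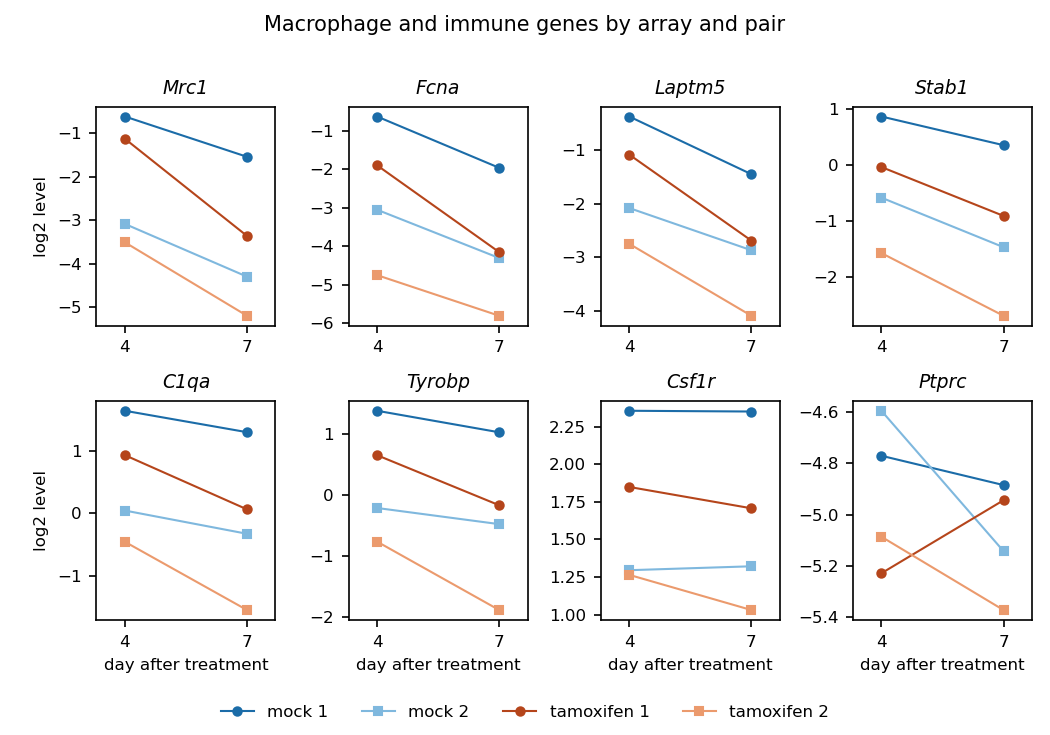
Levels (log2 relative to the 75th percentile of the array, y axis, scaled per gene) of 8 macrophage or leukocyte genes on day 4 and day 7 (x axis), with 1 line per pair. For Mrc1, Fcna, Laptm5, Stab1, C1qa and Tyrobp every line descends and number 1 cultures (circles) start above number 2 cultures (squares) of the same treatment, while Csf1r and Ptprc show no common direction.

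Other falls by rule were Sncaip, which encodes synphilin-1 (-1.23, adjusted p = 0.0276), Hal, the histidine ammonia-lyase gene (-1.05), Pou5f2 (-1.07), the carbonyl reductase gene Cbr2 (-0.98), the cell junction gene Vezt (-0.97), the long non-coding RNA Kcnq1ot1 (-0.96), Arsj (-0.86), the diacylglycerol kinase gene Dgkg (-0.85) and the zinc transporter gene Slc39a9 (-0.84), with adjusted p from 0.0227 to 0.0493. Kcnq1ot1 levels were -2.06 and -2.44 in mock and -2.17 and -2.41 in tamoxifen cultures at day 4. At day 7 Kcnq1ot1 stood at -3.24 and -3.23 in mock and -3.38 and -3.06 in tamoxifen cultures, with no overlap between the days. Hal levels were -2.64 and -3.90 in mock and -3.34 and -4.11 in tamoxifen cultures at day 4. At day 7 Hal stood at -3.70 and -5.03 in mock and -4.21 and -5.27 in tamoxifen cultures, where number 1 cultures were again the higher ones. A further 5 called genes were not well above background on any day 7 array, so they passed the filter through day 4 arrays alone. Of these 5, 2 had a clone-free name, Rtl4 and Ube2u. By the same kind of bound they were at least 1.36-fold and 1.18-fold lower at day 7. In brighter genes the DNA methyltransferase gene Dnmt3a fell by 0.47, the anthrax toxin receptor gene Antxr1 by 0.38 and the extracellular superoxide dismutase gene Sod3 by 0.78 (adjusted p = 0.0419, 0.0478 and 0.0276).

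Podocyte genes were called at a share near that of all genes (2.81%). Of 25 slit diaphragm and foot process genes tested none was called and the median difference was -0.01. In all 4 pairs 3 were higher and 5 lower, where 20.8% and 13.9% of all genes were. Nphs1, which encodes nephrin, had levels of 0.62 and 0.37 in mock and 0.83 and 1.27 in tamoxifen cultures at day 4. At day 7 Nphs1 stood at 0.79 and 0.05 in mock and 0.71 and 1.51 in tamoxifen cultures. Its difference was -0.01 (95% interval -0.29 to 0.28). Wt1, a transcription factor that marks podocytes, had levels of 5.14 and 4.92 in mock and 5.50 and 5.44 in tamoxifen cultures at day 4. At day 7 Wt1 stood at 5.17 and 4.93 in mock and 5.44 and 5.49 in tamoxifen cultures. The tyrosine phosphatase gene Ptpro was lower in all 4 pairs at -0.59 (adjusted p = 0.111). Of 13 podocyte transcription factor genes none was called and 6 were lower in all 4 pairs (13.9% of all genes), with a median of -0.25. Zhx3 differed by -0.28 and Foxc1 by -1.08 (adjusted p = 0.0819 and 0.229). The Foxc1 difference came from the tamoxifen pairs, at -2.43 and -1.52 in cultures 1 and 2, whereas the mock pairs gave -0.47 and 0.11. Foxc1 was well above background on 3 arrays of each day. Its tamoxifen 1 levels of -5.78 and -8.21 lay under the lowest signal well above background of their arrays (-5.61 and -5.92). The value of -2.43 is therefore not a measured size. Foxc2, among the 6 lower genes, was well above background on only 2 arrays of each day. Of 23 surface and secreted podocyte genes Igfbp7 was called, and the median was -0.13. The adaptor gene Nck1, chosen after its values were seen, had a level of -7.35 in the day 4 mock culture 1 and 0.88 to 1.43 on the other 7 arrays.

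The glomerular basement membrane is a sheet of type IV collagen and laminin that podocytes and endothelium build together. Of 22 of its genes tested 11 were lower and 1 higher in all 4 pairs, where 13.9% and 20.8% of all genes were, with a median of -0.17, and Col4a1 alone was called. Col4a1, which encodes the ubiquitous alpha-1 chain, had levels of 5.55 and 5.21 in mock and 5.33 and 5.18 in tamoxifen cultures at day 4. At day 7 Col4a1 stood at 5.28 and 4.85 in mock and 5.03 and 4.80 in tamoxifen cultures. It fell by 0.33 (SE 0.05, 1.25-fold, adjusted p = 0.0446). Col4a2, its usual partner, differed by -0.04 (95% interval -0.29 to 0.22). The chains of the mature podocyte network were lower in each pair without passing: Col4a3 -0.37, Col4a4 -0.43 and Col4a5 -0.28 (adjusted p = 0.13, 0.0944 and 0.054). The laminin chain gene Lamc1 differed by -0.38 and the proteoglycan genes Agrn and Hspg2 by -0.37 and -0.28 (adjusted p = 0.0837, 0.108 and 0.154). Of 16 complement genes 6 were lower in all 4 pairs, and the C1r protease gene C1ra fell by 0.59 (adjusted p = 0.0447). Its partner C1s1 differed by -0.64 (adjusted p = 0.109).

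The tumour suppressor p53 halts the cell cycle after damage. Of 22 of its targets tested, 11 were higher and 0 lower in all 4 pairs, where 20.8% of all genes were higher, and the median was 0.14. Perp, which encodes a junction protein, had levels of -0.08 and -0.20 in mock and -0.27 and -0.90 in tamoxifen cultures at day 4. At day 7 Perp stood at 0.24 and 0.44 in mock and 0.41 and -0.17 in tamoxifen cultures. Each pair was higher on day 7 and the days overlapped; Perp was the called member (0.59, SE 0.08, adjusted p = 0.0437). Pmaip1, the gene of the death factor Noxa, had levels of 0.93 and 0.94 in mock and 1.19 and 0.50 in tamoxifen cultures at day 4. At day 7 Pmaip1 stood at 1.37 and 1.69 in mock and 1.57 and 1.33 in tamoxifen cultures. The days did not overlap, and the difference was 0.60 (adjusted p = 0.0576). Cdkn1a, the gene of the cell cycle inhibitor p21, had levels of 3.42 and 3.66 in mock and 3.64 and 3.61 in tamoxifen cultures at day 4. At day 7 Cdkn1a stood at 3.59 and 4.13 in mock and 4.03 and 4.38 in tamoxifen cultures (difference 0.45, adjusted p = 0.0959). The median was 0.04 and 0.02 in number 1 pairs and 0.24 and 0.28 in number 2 pairs. Of 27 nuclear respiratory chain genes 14 were higher and 0 lower in all 4 pairs, with a median of 0.10 and none called. Ndufb2, a complex I gene that is not in the list, rose by 0.38 (adjusted p = 0.046) and lost its call in 10 of 15 alternatives. Uqcrq differed by 0.33, Ndufa9 by 0.38 and Cox5b by 0.24 (adjusted p = 0.0659, 0.0713 and 0.0731). Of 27 lysosome and autophagy genes 12 were higher and 1 lower in all 4 pairs, with a median of 0.09 and none called. These last 2 medians are of the size that a change of scale moves, 0.01 to 0.24 and 0.03 to 0.21 over the alternatives.

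The cell cycle genes took opposite directions in the 2 numbered sets. Of 27 mitosis genes all 27 were higher at day 7 in both number 1 pairs and lower in both number 2 pairs, as were 10.7% of all genes. The list median was 0.69 in the mock 1 and 0.40 in the tamoxifen 1 pair, against -0.68 in mock 2 and -0.97 in tamoxifen 2, and the joint day fit called none. Top2a, the topoisomerase of dividing cells, had levels of -2.03 and -1.54 in mock and -1.70 and -1.37 in tamoxifen cultures at day 4. At day 7 Top2a stood at -1.36 and -2.39 in mock and -1.24 and -2.65 in tamoxifen cultures. Number 2 cultures were the higher ones on day 4 and number 1 cultures on day 7, in both treatments. Ccnb1, the gene of cyclin B1, had levels of -0.53 and 0.27 in mock and -0.01 and 0.31 in tamoxifen cultures at day 4. At day 7 Ccnb1 stood at 0.17 and -0.61 in mock and 0.28 and -0.90 in tamoxifen cultures. Cenpa, the centromere histone gene, had levels of -2.50 and -1.84 in mock and -2.06 and -1.62 in tamoxifen cultures at day 4. At day 7 Cenpa stood at -1.40 and -2.56 in mock and -1.20 and -2.60 in tamoxifen cultures. Number 1 and number 2 arrays also held different positions on each slide, while both arrays of a pair held the same position. The part of position in the split was not tested.

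The difference between the numbers was fitted after the pair medians had been seen. limma called 0 genes for it at an adjusted p under 0.05 (0%; smallest 0.147; 3030 at an unadjusted p under 0.05), 261 with the trend and robust options of eBayes (1.84%; 207 or 1.46% lower and 54 or 0.38% higher in number 2) and 6 with the pairs as a random block. With trend and robust options 22 of the 27 mitosis genes were called, each lower in number 2, with Cenpa at -1.83 (adjusted p = 0.0403), Ccnb1 at -1.54 and Top2a at -1.64 (adjusted p = 0.0429 and 0.0426). The mitosis median of this difference was -1.38 and kept its sign under 14 alternatives, from -1.56 to -1.13.

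DNA replication genes followed mitosis: 23 of 32 were higher in both number 1 pairs and lower in both number 2 pairs, with pair medians of 0.38 (mock 1), -0.22 (mock 2), 0.29 (tamoxifen 1) and -0.30 (tamoxifen 2). Tk1, the thymidine kinase gene, had levels of -1.50 and -0.86 in mock and -1.27 and -0.83 in tamoxifen cultures at day 4. At day 7 Tk1 stood at -0.53 and -1.64 in mock and -0.48 and -2.01 in tamoxifen cultures. Genes of cholesterol synthesis did likewise, 20 of 24, with pair medians of 0.30 and -0.34 in mock and 0.72 and -0.31 in tamoxifen. Hmgcs1, the gene of a synthase early in the pathway, had levels of 3.10 and 3.27 in mock and 3.06 and 3.37 in tamoxifen cultures at day 4. At day 7 Hmgcs1 stood at 3.34 and 2.78 in mock and 3.58 and 2.96 in tamoxifen cultures. The isoprenoid gene Idi1 had levels of 0.99 and 1.01 in mock and 0.59 and 0.96 in tamoxifen cultures at day 4. At day 7 Idi1 stood at 1.57 and 0.44 in mock and 1.70 and 0.37 in tamoxifen cultures. Genes of the ATF4 and amino acid response ran the other way. Of 29, 22 were lower in both number 1 pairs and higher in both number 2 pairs, where 10.4% of all genes were, with pair medians of -0.38 and 0.43 in mock and -0.22 and 0.22 in tamoxifen. Atf4 itself had levels of 6.38 and 6.17 in mock and 6.50 and 6.17 in tamoxifen cultures at day 4. At day 7 Atf4 stood at 5.70 and 6.49 in mock and 6.03 and 6.39 in tamoxifen cultures. Chac1, the gene of a glutathione-degrading enzyme, had levels of 1.80 and 0.36 in mock and 2.23 and 1.11 in tamoxifen cultures at day 4. At day 7 Chac1 stood at 0.33 and 1.745 in mock and 1.37 and 1.41 in tamoxifen cultures. By contrast the immune markers were lower in both sets, at -0.27 and -0.37 in mock and -0.56 and -0.95 in tamoxifen pairs.

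**Figure D4:**
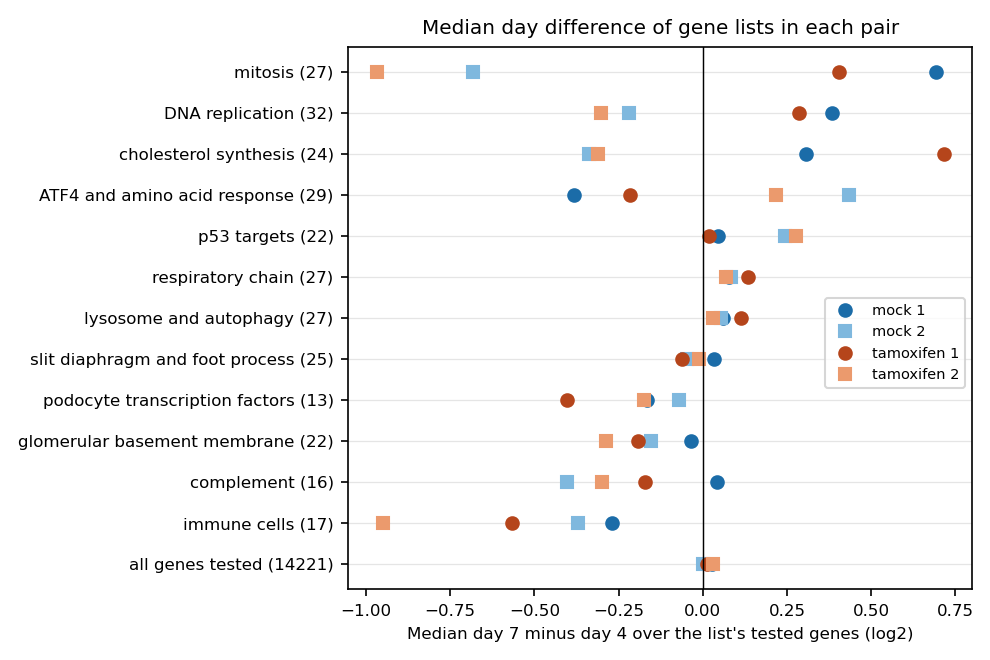
Median day 7 minus day 4 (log2, x axis) over the tested genes of each list (y axis, number of genes in brackets) in each of the 4 pairs, circles for number 1 and squares for number 2. Mitosis, DNA replication and cholesterol synthesis lie above 0 in number 1 and below 0 in number 2 pairs, ATF4 genes lie the other way round, and immune cell markers lie below 0 in all 4.

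**Figure D5:**
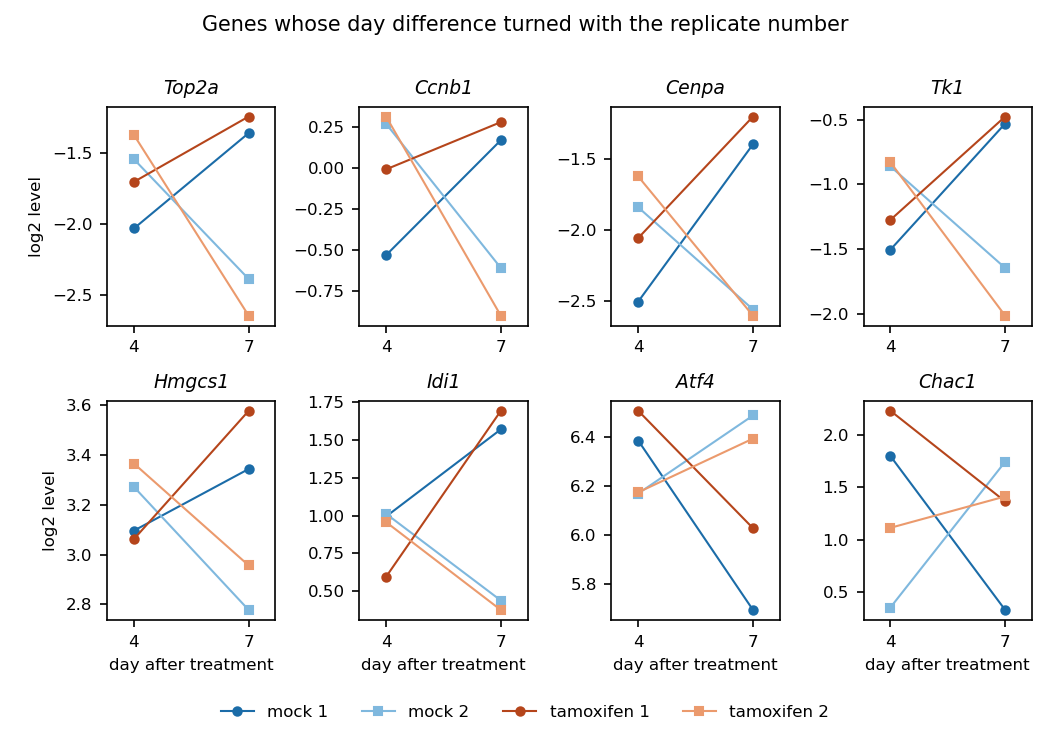
Levels (log2 relative to the 75th percentile of the array, y axis, scaled per gene) of 4 cell cycle, 2 cholesterol and 2 ATF4 response genes on day 4 and day 7 (x axis), 1 line per pair. Circles (number 1) climb and squares (number 2) descend for Top2a, Ccnb1, Cenpa, Tk1, Hmgcs1 and Idi1, and the reverse holds for Atf4 and Chac1.

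Mitosis genes are known for promoters with CCAAT boxes and a cell cycle element close to the start. In RefSeq promoters of GRCm38.p6, 23 of the 27 mitosis genes were matched, and 17 of them (73.9%) held CCAAT on either strand in the 250 bases before the start, as did 34.5% of all promoters and 36% of those of tested genes. CCAAT was not particular to the mitosis list, and it was not counted in the other divided lists. It was also in 16 of 18 promoters (88.9%) of the unfolded protein response list. The pair medians of that list were 0.07 (mock 1), 0.001 (mock 2), 0.11 (tamoxifen 1) and -0.04 (tamoxifen 2). The element core TTTGAA was in 9 of 23 (39.1%), beside 16.3% of all and 10.9% of tested promoters. The cores of the other divided lists are longer runs of letters and were rarer in all promoters as well. TGATGCAA was in 4 of 25 ATF4 response promoters (16%, against 0.8% of all and 0.6% of tested promoters). TCACCCCAC was in 1 of 16 cholesterol promoters (6.2%, against 0.5% of all and 0.5% of tested). TTTCCCGC and TTTGGCGC were in 2 and 3 of 27 DNA replication promoters (7.4% and 11.1%, against 0.9% and 0.4% of all and 1.6% and 0.7% of tested). A match is a run of letters and not a shown binding site. The 150 bases before the start are given for the 5 mitosis genes with the lowest p of the difference between numbers that hold CCAAT in this stretch, 5′ to 3′ along the gene, with CCAAT or its reverse complement in capitals. They were chosen after the values were seen. They lie at chr5:30666736-30666885, plus strand (Cenpa), chr7:122159285-122159434, plus strand (Plk1), chr3:27153879-27154028, minus strand (Ect2), chr15:99651657-99651806, minus strand (Racgap1) and chr11:99024190-99024339, minus strand (Top2a).
Cenpa: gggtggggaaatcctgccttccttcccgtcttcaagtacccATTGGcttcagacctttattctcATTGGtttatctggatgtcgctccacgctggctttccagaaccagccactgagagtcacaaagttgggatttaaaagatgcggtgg
Plk1: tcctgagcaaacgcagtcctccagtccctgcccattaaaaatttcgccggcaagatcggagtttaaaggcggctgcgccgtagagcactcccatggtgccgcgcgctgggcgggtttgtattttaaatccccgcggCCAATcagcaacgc
Ect2: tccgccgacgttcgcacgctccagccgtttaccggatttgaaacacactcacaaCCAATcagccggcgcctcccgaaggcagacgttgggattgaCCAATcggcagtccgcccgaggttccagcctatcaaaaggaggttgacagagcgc
Racgap1: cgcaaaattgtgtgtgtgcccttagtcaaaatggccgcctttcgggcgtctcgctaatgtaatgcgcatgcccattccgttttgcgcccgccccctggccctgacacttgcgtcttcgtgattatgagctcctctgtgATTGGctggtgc
Top2a: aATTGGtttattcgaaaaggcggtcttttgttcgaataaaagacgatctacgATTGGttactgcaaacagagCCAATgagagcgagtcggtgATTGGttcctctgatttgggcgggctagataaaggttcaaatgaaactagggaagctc
Top2a held 4 copies in this window, Cenpa and Ect2 2 each, and Plk1 and Racgap1 1 each.

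The day difference did not differ detectably between the treatments. limma called 0 genes for the day difference in tamoxifen minus that in mock cultures (0%; 368 at an unadjusted p under 0.05, smallest adjusted p 1), and 0 under every alternative run. Within mock pairs alone it called 0 genes (0%; 1551 unadjusted) and within tamoxifen pairs alone 0 (0%; 1672 unadjusted), each resting on 2 pairs; with pairs as a random block these counts were 110 and 19. With the normexp background 2730 genes had an unadjusted p under 0.05 for the difference between treatments, 157 within mock and 5242 within tamoxifen pairs, with 0 called in each. Of the genes with the lowest unadjusted p, Ces1d and Ces1f, which encode carboxylesterases, were well above background on no day 4 array and on 2 day 7 arrays, so no size is given for them. The interferon-responsive gene Ifi27l2a had levels of 0.81 and -0.94 in mock and 0.18 and -1.41 in tamoxifen cultures at day 4. At day 7 Ifi27l2a stood at 1.15 and -0.73 in mock and -0.72 and -2.23 in tamoxifen cultures, a difference between treatments of -1.14. Vsig4, a complement receptor gene of macrophages, had levels of -4.08 and -5.05 in mock and -4.78 and -6.66 in tamoxifen cultures at day 4. At day 7 Vsig4 stood at -2.83 and -4.01 in mock and -5.38 and -6.96 in tamoxifen cultures, and it was well above background on 3 of 4 arrays of each day (-1.59). The falls of Mrc1, Laptm5 and Trf were larger in tamoxifen than in mock pairs by 0.89, 0.54 and 0.52 on the log2 scale, and these differences between treatments did not pass (adjusted p = 1 for each).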

How the data were processed

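Signals came from one-colour Agilent arrays. The authors' files hold spot intensities that Agilent Feature Extraction 11.5.1.1 (per the submitters' processing notes) had background-subtracted, with a flag for signal well above background, per the file headers. The deposited series table holds log2 values that correlated at r = 1 with the scanner values and differed from them by a constant per array (0.103 to 0.121 in the cultures); how the authors centred them is not stated.

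Here log2 of the processed signal minus the 75th percentile of the array was averaged over spots of a probe. A probe was kept where 2 or more of the 8 culture arrays carried that flag (24499 of 39429), and of several probes of a gene the brightest on average was used, leaving 14221 named genes. Of 39429 probes, 26581 had 1 symbol, 0 had several and 12848 had none. Of the 399 called genes 58 had more than 1 kept probe, and in 9 another probe pointed the other way. limma 3.58.1 (R 4.3.3) fitted day with a block for each treatment and number, with Benjamini-Hochberg adjustment over all genes. The labels share numbers across days, and the deviations of same-numbered arrays from their group means correlated at 0.44 to 0.61, so the block was kept; 4 pairs allow an exact two-sided p no lower than 0.125 for a single value.

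Named genes were the 15 largest rises and 15 largest falls that were called, had all 4 pairs in 1 direction and carried the flag on 2 or more arrays of each day, leaving out clone names; up to 5 bounds each way; in a list, its called members (5 at most); and, for the difference between treatments, those with the lowest p. Further genes named as examples were picked with their values known. The members and the 40 gene lists were chosen with earlier results of these data known. On simulated data for the day comparison shifts of 0.5, 1, 2 and 3 on the log2 scale, 50 genes each, were called in 50%, 84%, 96% and 98%, with 7 false calls among 14021 genes. Alternatives covered scaling, background, filter, probe choice, block, fit options, all 12 arrays, the deposited table and left-out pairs; the contrast between numbers and the spike-in fit were added after the data were seen. The number of arrays limits the precision. Some members of the lists are not reported here by name. Slide and day cannot be told apart.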

Additional observations from a re-analysis of the deposited data

How the results depend on the processing

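The count of 399 genes was 301 without the replicate block (235 shared), 442 with median scaling (330 shared), 383 with quantile normalization, 368 with the mean of the probes, 507 with probes well above background on all 8 arrays, 522 with trend and robust options, 308 with all 12 arrays in the fit and 389 from the deposited log2 table. It was 859 with pairs as a random block (708 higher, 151 lower; 354 shared). It was 0 with the normexp background (972 at an unadjusted p under 0.05), 0 without a filter on dim probes (3696 among 20131 genes), and 0 to 0 when 1 pair was left out, which leaves fewer arrays (2173 unadjusted without tamoxifen 1, 2523 without mock 1, 2575 without mock 2, 3120 without tamoxifen 2). The cause of the other changes was not tested. In mock cultures the count of 0 became 2 without the replicate block, 1 with all 12 arrays, 110 with a random block and 0 to 1 with a pair left out; in tamoxifen cultures it became 19 with a random block. With the normexp background 17 named genes turned negative: Serpinb6e -0.436, Nwd1 -0.114, Pip -0.202, Marchf10 -0.347, Ajap1 -0.364, Adra2b -0.213, Ripply2 -0.366, Scml4 -0.396, Zim3 -0.299, Golt1a -0.264, Fgf14 -0.032, Mrgprb4 -0.284, Nkain2 -0.458, Ccr8 -0.39, Vmn2r4 -0.464, Krtap1-4 -0.392 and Slc22a6 -0.145. No other named called gene changed sign under any alternative run. Median scaling moved the all-gene median of the difference between numbers from -0.005 to 0.108. Genes near background are limited by signal, and each treatment by its 2 pairs.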

Other observations

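Markers of other cell types that glomerular outgrowths can hold were mostly without calls between day 4 and day 7, where 2.81% of all genes were called. Of 11 tubule markers tested, Slc22a6, an organic anion transporter gene, was called at 0.71 (adjusted p = 0.0283), with the sign turned under the normexp background. The list median was 0.40, but it ran from -0.497 to 0.411 under 9 other settings, so its direction depended on the processing. In all 4 pairs 5 markers were higher and 2 lower, where 20.8% and 13.9% of all genes were. The 5 higher ones were dim, with mean levels from -5.65 to -2.47. Cdh16, a kidney cadherin gene with a mean level of 0.56, was among the lower ones at -0.93 (adjusted p = 0.0809). Of the 22 listed markers 9 were well above background on no array. Of 10 fibroblast markers the transcription factor gene Prrx1 fell by 0.55 (adjusted p = 0.0478), and the list median was 0.07. No marker was called among 16 of endothelium (median -0.002), 13 of mesangial and mural cells (-0.10) and 11 of parietal epithelium (-0.19); Cldn1 and Pax8, of the parietal list, were lower in all 4 pairs at -0.65 and -0.25 (adjusted p = 0.106 and 0.0872).

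Among signalling genes, Nog, which encodes the bone morphogenetic protein antagonist noggin, was the called member of 27 genes of the TGF-beta and BMP list (0.92, adjusted p = 0.0495). Of 25 Wnt genes Notum rose by 0.47 and the receptor ubiquitin ligase gene Rnf43 fell by 0.52 (adjusted p = 0.0283 and 0.0483). None of 23 interferon response genes, 28 hypoxia and glycolysis genes, 21 YAP and TEAD targets or 20 genes of the unfolded protein response was called, with medians of 0.02, -0.01, -0.11 and 0.005; at 2.81% of all genes, lists of this size hold few calls or none. Hmox1, the heme oxygenase gene, and Vegfa, the vascular growth factor gene, divided by number as the ATF4 genes did: Hmox1 differed by -0.60 in number 1 and 0.57 in number 2 pairs, and Vegfa by -0.36 and 0.57. Both were called for the difference between numbers with trend and robust options in limma (adjusted p = 0.0403 and 0.0429), and both were chosen after their values were seen.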
